A study of Mus musculus with 16 samples.

Results

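The comparison described here is that of hippocampal RNA from N-dCKO mice, in which both the amyloid precursor protein gene App and its relative Aplp2 are disrupted, with RNA from WT mice. Its members are the 4 arrays titled N-dCKO and the 4 titled WT, 8 of the 16 arrays in the series. The remaining arrays are 4 titled APPKO, labelled as lacking APP, and 4 titled APLP2KO, labelled as lacking APLP2, and they enter here as levels given side by side, in the shared estimate of the spread and in the test of the interaction. All mice are labelled as males of strain C56/BL6 aged 2 months. The series title calls the double knockout neuronal and conditional, while the genotype given for these mice is APP-/-; APLP2-/-. The promoter that drove the recombination, the cells it acted in and the control genotype of the WT mice are not stated in the labels. The labels number the samples of a group 1 to 4 but do not call them different animals. A p-value therefore reflects how far these samples scatter, and part of that scatter may be technical.

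APP, APLP1 and APLP2 form a family of membrane proteins with a large extracellular part and a short cytoplasmic tail, cut by secretases into fragments that are released or stay in the cell. Neurons carry all 3 members, and the family is known for roles at the synapse and in neurite growth, with APP best known as the source of the amyloid-beta peptide. In the brain App and Aplp2 are also transcribed in glia, blood vessels and the choroid plexus, the secretory epithelium that lines parts of the ventricles next to the hippocampus and makes cerebrospinal fluid.

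Values are MAS5 signals, the linear intensity Affymetrix software gives each probe set, which is a group of short probes to 1 transcript. Differences are log2 fold changes of signal + 9 with their SE from a limma model over all 16 arrays, and a gene is said to have risen or fallen where the limma p adjusted over all 11664 genes tested was below 0.05. The median signal of an array lay between 79.7 and 102, and arrays correlated with the rest of their group at a mean of 0.986 to 0.990. Markers of hippocampal neurons were present on all 8 arrays: Prox1 of dentate granule neurons at a signal of 510.1 to 737 and Wfs1 of CA1 pyramidal neurons at 2318 to 3409. The ratio of the 3' to the 5' Gapdh control signal, a measure of RNA integrity, was 0.813 ± 0.017 on the N-dCKO arrays and 0.764 ± 0.015 on the WT arrays (SD, n = 4), with no overlap (exact two-sided permutation p = 0.0286, the smallest that 4 against 4 arrays allow, and 0.0571 adjusted over 2 ratios). The actin ratio was 1.63 ± 0.07 and 1.64 ± 0.05 (exact permutation p = 0.83). Because the Gapdh ratio did not overlap between the groups, fits with it as a covariate cannot tell its effect from that of genotype. N-dCKO array 3 stood apart from the other N-dCKO arrays in choroid plexus genes, as given below, so that results resting on it are given with and without it.

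App, whose product gave the family its name, had signals of 17314, 18142, 19940.4 and 18599.6 on the WT arrays and of 2322, 1959, 2381 and 2103 on the N-dCKO arrays. Every N-dCKO array lay below every WT array, and the mean was 11.8% of WT, or -3.07 ± 0.07 on the log2 scale (limma adjusted p = 7.13e-17). The APPKO arrays read a mean of 2511 for the same probe set, so that the App signal kept in N-dCKO was about as low as in the mice labelled as lacking APP. Another App probe set kept 5.34% of WT, and both remaining App probe sets were near background in every group. Aplp2 signals were 6186, 5857, 6168 and 5725 on the WT arrays and 860.4, 938, 1132 and 1064 on the N-dCKO arrays. That is 16.7% of WT and -2.58 ± 0.12 on the log2 scale (limma adjusted p = 2.16e-11), with a mean of 1162 in APLP2KO. The other 4 Aplp2 probe sets kept 9.37%, 10.9%, 23.6% and 41.6% of WT. Where these probes lie relative to the disrupted exons is not stated in the labels. Aplp1, the intact relative, was at 13578, 14791, 15868 and 15100.2 in WT and at 13981, 14144, 16227 and 13459 in N-dCKO, a log2 fold change of -0.04 ± 0.06 in overlapping groups (limma adjusted p = 0.874).

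**Figure D1:**
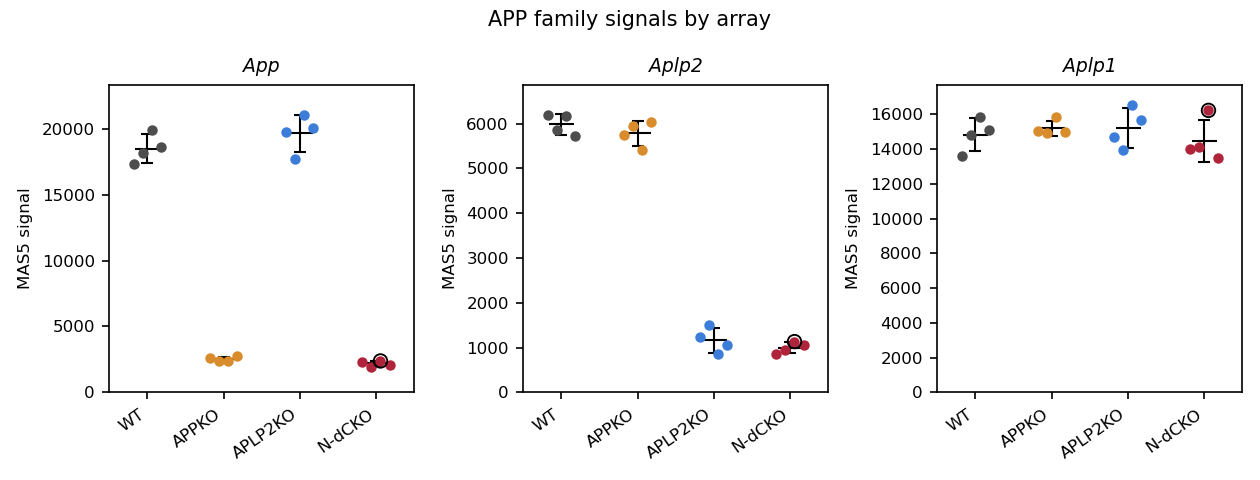
MAS5 signal (linear axis from 0) of App, Aplp2 and Aplp1 on each array of the 4 groups; bars are the mean ± SD (n = 4) and a ring marks N-dCKO array 3. App is low in APPKO and N-dCKO, Aplp2 is low in APLP2KO and N-dCKO, and Aplp1 lies in the same range in all groups.

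Few genes passed, and falls outnumbered rises. Of 11664 genes tested, 110 passed (0.943%), App and Aplp2 among them, 29 of them higher in N-dCKO (0.249%) and 81 lower (0.694%). Counting every gene tested, passing or not, 5682 differences were positive and 5982 negative. Of the falls 31 exceeded 2-fold, against 2 of the rises, and in 100 of the 110 genes the 4 arrays of one group all lay above the 4 of the other. The split into rises and falls depends on scaling. With each array centred on its median, which moved the median of all genes by -0.09, 2 genes were higher and 148 lower, although all 110 kept their direction. Leaving out 1 array moved the count by over 1.5 times in 4 cases: 64 genes passed without WT array 1, 45 without WT array 2, 46 without N-dCKO array 1 and 65 without N-dCKO array 2. Without N-dCKO array 3 there were 103 calls, 25 higher and 78 lower, and 38 of the 110 genes passed in each of the 8 fits without 1 array.

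**Figure D2:**
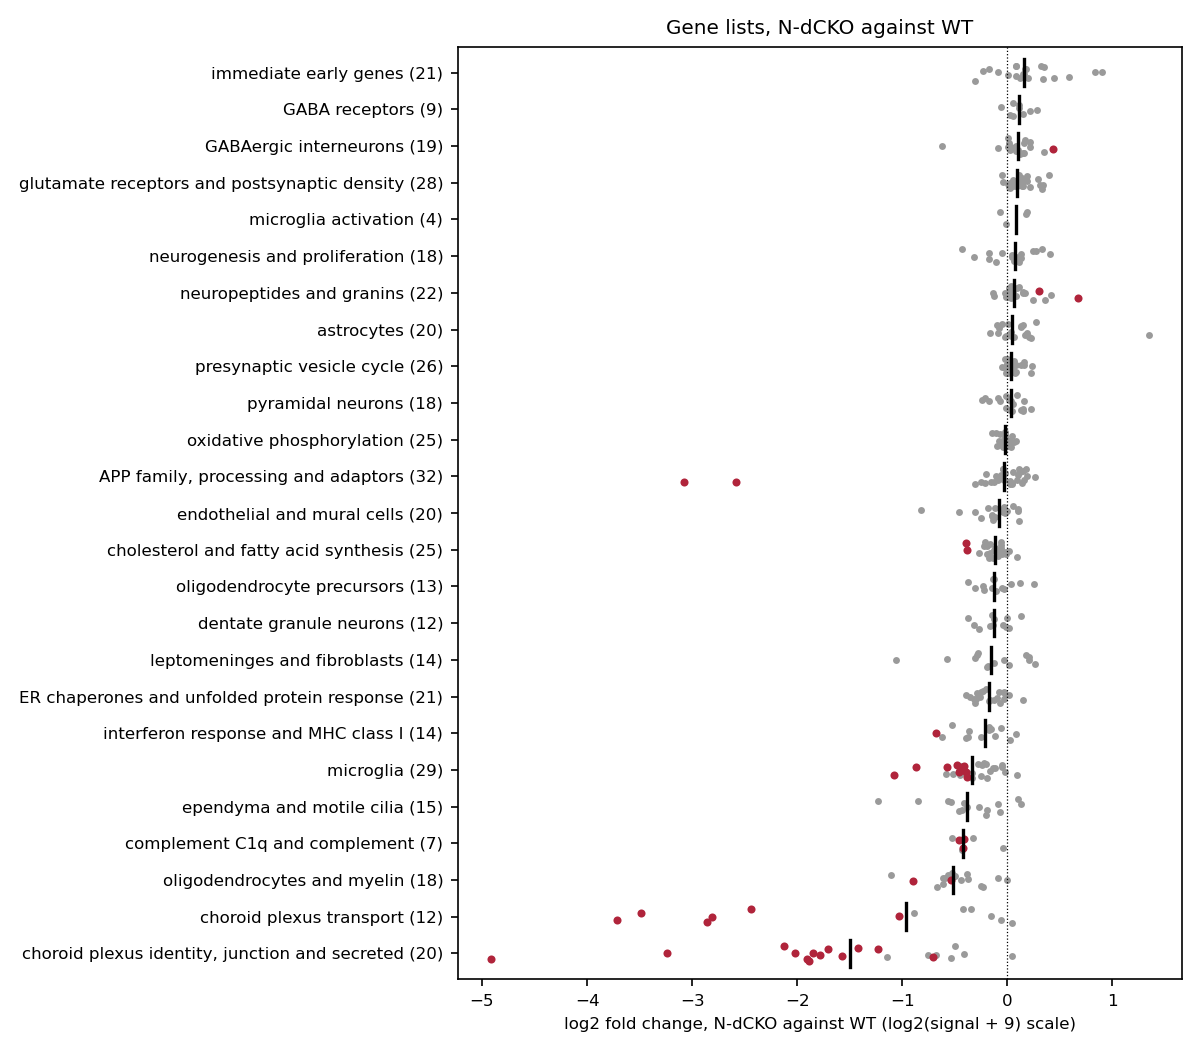
Log2 fold change of N-dCKO against WT for each tested gene of 25 lists, with the number of genes tested in parentheses; red points passed at an adjusted p below 0.05, grey points did not, and black bars are list medians. The choroid plexus lists reach furthest to the left, with medians of -1.50 and -0.96, the microglia list lies at -0.34, and the neuronal lists lie within 0.16 of 0.

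Many of the largest falls were in genes of the choroid plexus epithelium. Of 14 genes for its channels and transporters 12 could be tested and 6 fell (0.694% of all genes fell), with a list median of -0.96 against -0.00407 over all genes. Clic6, a chloride channel protein, read 1094, 1490.2, 573 and 689 on the WT arrays. On the N-dCKO arrays it read 18, 34.1, 399 and 38.8, so that array 3 lay far above the other N-dCKO arrays and still below the lowest WT array. Its log2 fold change was -3.71 ± 0.55 (limma adjusted p = 0.00196). Kcne2, the accessory subunit of an apical potassium channel, went from 284, 638, 199 and 242 to 4.98, 4.87, 155 and 10.8, with array 3 again the exception. The change was -3.49 ± 0.59 (limma adjusted p = 0.00368).

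Kcnj13, an inward rectifier potassium channel, read 659.7, 999, 421 and 561 in WT and 24.6, 80.9, 282 and 68.6 in N-dCKO (-2.81 ± 0.42). The water channel Aqp1 read 298, 357, 200.3 and 274 and 25.9, 53.6, 139 and 14.8 (-2.44 ± 0.39). The folate receptor Folr1, which carries folate into the cerebrospinal fluid, read 920.3, 1060.2, 583 and 526 and 55.3, 66.2, 385 and 50.3 (-2.86 ± 0.43). In these 3 genes the groups did not overlap, and the adjusted p from limma was 0.00196, 0.0025 and 0.00196. The glucose transporter Slc2a12 also fell (-1.03 ± 0.22, limma adjusted p = 0.0272), with array 3 at 292 inside the WT range of 262 to 441. The other 6 tested transporters did not pass. Slc13a4, a sulfate transporter, was at 412 ± 109 in WT and 219.7 ± 70 in N-dCKO (SD, n = 4, limma adjusted p = 0.0922), and Slc4a2 and Slc31a1 had log2 fold changes of -0.42 and -0.34. Slc29a4, Slc24a4 and Atp2b3, which neurons also express, had differences of -0.05, 0.04 and -0.15.

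Genes that give the epithelium its identity, its junctions and its secreted products behaved alike. Of 25 listed, 20 were tested, 13 fell (0.694% of all genes fell) and the median was -1.50. Otx2, the homeobox transcription factor that maintains the choroid plexus, read 327, 418, 136 and 197 in WT and 0.425, 8.38, 132 and 14.4 in N-dCKO. The groups did not overlap, array 3 lying just under the lowest WT array, and the change was -3.24 ± 0.55 (limma adjusted p = 0.00426). Cldn2, the claudin of its leaky tight junctions, went from 282, 391, 233 and 279 to 41.4, 51.0, 153 and 52.4 (-2.02 ± 0.30, limma adjusted p = 0.00196). Klotho (Kl), a membrane protein also shed into cerebrospinal fluid, went from 598, 814, 324 and 444 to 93.6, 72.2, 247 and 90.1 (-2.12 ± 0.31, limma adjusted p = 0.0019). Both genes had every N-dCKO array below every WT array.

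Transthyretin (Ttr), the thyroxine carrier that is the main secreted product of the choroid plexus and also binds amyloid-beta, was the most extreme and the least uniform. WT signals were 26344, 27999, 33519 and 29013, and N-dCKO signals were 109.8, 283, 34285 and 715. Array 3 thus lay above every WT array while the other N-dCKO arrays kept between 0.376% and 2.45% of the WT mean. The change was -4.92 ± 1.0 (limma adjusted p = 0.0204), and -6.64 without array 3. It did not pass without N-dCKO array 1 or 2 or WT array 1, 2 or 3 (limma adjusted p up to 0.0754), nor with the Gapdh ratio as a covariate. The WT signals are near the top of the scale, where an array reads at most 29153 to 38601, so the sizes for Ttr are those of the signals as read and depend on whether this probe set was saturated, which was not tested. Of the epithelial keratins, Krt8 fell by 1.58 and Krt18 by 1.23 on the log2 scale. Also lower were the secreted Wnt and BMP inhibitor Sostdc1 (-1.42), coagulation factor V (F5, -1.89), the collagen Col8a1 (-1.70), the sulfatase Sulf1 (-1.78), Steap1 (-1.91), Calml4 (-1.85) and Cab39l (-0.71). Of the 7 members that did not pass, Wfdc2, Cldn1 and Igfbp2 had log2 fold changes of -1.14, -0.75 and -0.68, Rdh5, Msx1 and Ace of -0.54, -0.50 and -0.41, and Igf2, also made by the meninges, of 0.04.

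**Figure D3:**
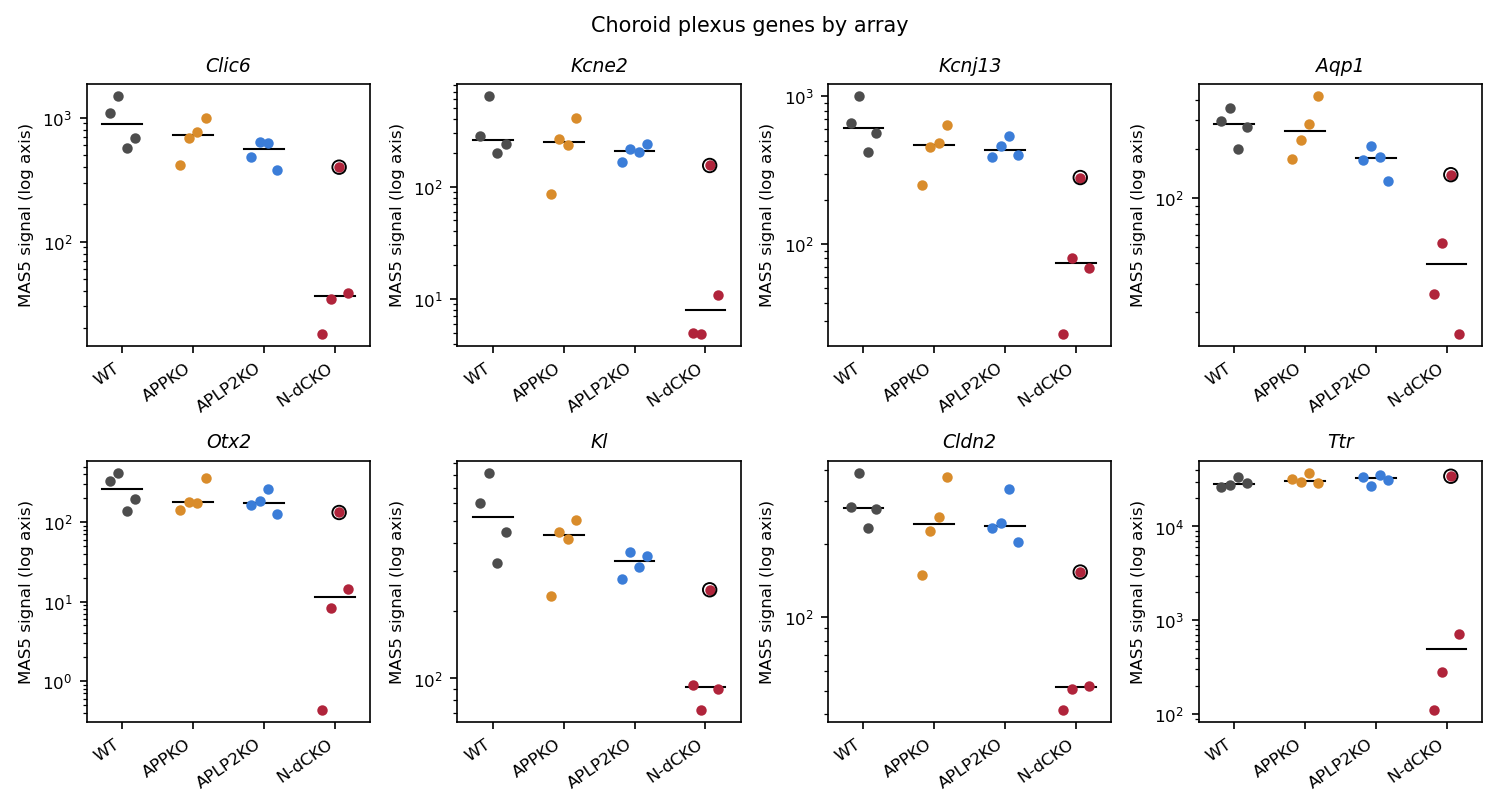
MAS5 signal (log axis) of 8 choroid plexus genes on each array of the 4 groups; bars are medians (n = 4) and a ring marks N-dCKO array 3. Array 3 is the highest N-dCKO array in each gene. For Clic6 it reads 399 and the other N-dCKO arrays 38.8 or less.

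N-dCKO array 3 was the highest of the 4 N-dCKO arrays in all 19 called choroid plexus genes, whereas it was the highest in 27.7% of all genes tested. Leaving Ttr out, the other 18 genes had a median of 53.3% of the WT mean on array 3 (range 41.5% to 80.8%), and of 15.1%, 18.1% and 16.9% on arrays 1, 2 and 4. WT arrays differed too: WT array 2 was the highest WT array in 14 of the 19 genes and WT array 3 the lowest in 16. Without N-dCKO array 3, 7 transport and 15 identity genes fell, and the medians were -1.17 and -1.82. Without WT array 2 the counts were 5 and 7, and without N-dCKO array 1 they were 5 and 7 as well. With the Gapdh ratio as a covariate, 4 transport and 2 identity genes passed, with medians of -1.24 and -1.51. The summed signal of the 19 tested identity genes other than Ttr was 7181 to 13383 in WT, 6942 to 12173 in APPKO, 9157 to 9752 in APLP2KO and 5023 to 7660 in N-dCKO. The lowest single signal among them in N-dCKO was 0.425, for Otx2. Choroid plexus is not part of the labelled tissue, and how much of it was collected with each sample is not stated in the labels and was not tested. In whole tissue, fewer cells of a type and less RNA per cell cannot be told apart.

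Many of the N-dCKO signals above lie below 88, the cutoff of the filter, and such genes were tested because the other groups read higher. With every signal below 88 set to 88, an alternative added after the data were seen, 6 transport and 12 identity genes passed, with medians of -0.96 and -1.0. WT then exceeded N-dCKO at least 6.51-fold for Clic6, 5.43-fold for Folr1, 4.99-fold for Kcnj13 and 4.16-fold for Kl. For Kcne2, Cldn2, Aqp1 and Otx2 it was at least 2.85-fold, 2.72-fold, 2.64-fold and 2.40-fold, and all 8 passed (limma adjusted p at most 0.0472). Krt8 did not pass in that fit (limma adjusted p = 0.159).

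Several other falls, chosen here after their values were seen, are of genes known from this epithelium or from fluid transport. Ecrg4, a secreted peptide precursor, went from 2907, 3867, 1899 and 2509 to 107, 176, 1271 and 157 (-3.39 ± 0.51, limma adjusted p = 0.00196), with array 3 again far above the other N-dCKO arrays. The carbonic anhydrases Car12 and Car14, which interconvert carbon dioxide and bicarbonate, fell by 0.70 and 0.97 on the log2 scale. Slc12a2, the sodium-potassium-chloride cotransporter, went from 3739.9, 4156, 4438 and 4763 to 2719.9, 2829, 3329.9 and 3309 (-0.49 ± 0.10, limma adjusted p = 0.0194). Here array 3 did not stand apart. Also lower were Lbp, a lipopolysaccharide-binding protein (-1.26), the collagen Col8a2 (-1.50), the procollagen enhancer Pcolce2 (-0.72) and the sphingomyelin synthase Sgms2 (-0.97). Among the largest falls of the comparison were Defb11, a defensin, at 414, 572, 264 and 382 in WT and 33.6, 9.16, 100.4 and 7.53 in N-dCKO (-3.55 ± 0.44), and Prr32 (-2.84 ± 0.47). With signals below 88 set to 88 these were at least 4.02-fold and 2.91-fold lower, and Col8a2 did not pass (limma adjusted p = 0.0703).

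Ependymal cells, which line the ventricles and carry motile cilia, were measured by a list of their own. None of its 15 tested genes passed, 13 were negative and the median was -0.39. The master regulator Foxj1 was at 174 ± 11.7 in WT and 97.2 ± 35.9 in N-dCKO (SD, n = 4, limma adjusted p = 0.0643), and Ccdc153 was at a difference of -1.23 (limma adjusted p = 0.157). Without N-dCKO array 3, and with median centring, 1 ependymal gene passed. In a fit with the level of choroid plexus genes as a covariate 10 of 15 were positive, the median was 0.14 and 0 passed. Of 14 tested genes of the leptomeninges and fibroblasts 9 were negative and 0 passed, with a median of -0.15. A single gene was called lower without N-dCKO array 3, without WT array 3, with median centring and with the Gapdh ratio as a covariate. In these fits and the others without 1 array, the median ran from -0.0089 without WT array 1 to -0.38 with the Gapdh covariate. With the choroid plexus covariate it changed sign, to 0.17, and 9 of 14 were positive.

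Promoters of called choroid plexus genes were examined because OTX2, the factor encoded by Otx2, binds the core TAATCC. Promoter windows of 300 bases, 250 before to 50 after a transcription start, came from RefSeq on GRCm38.p6, and 14 of the 19 called choroid plexus genes had one. The letters TAATCC, or GGATTA on the other strand, were in a window of 1 of these 14 genes (7.14%). That is near the share of tested genes with a window (6.71%) and of all genes with a window (8.14%). The 250 bases before the start are shown for that gene, Otx2 itself (chr14:48665110-48665359, minus strand), where capitals mark the match, and for Kcne2 (chr16:92292139-92292388, plus strand), which also fell and has no match.
Otx2: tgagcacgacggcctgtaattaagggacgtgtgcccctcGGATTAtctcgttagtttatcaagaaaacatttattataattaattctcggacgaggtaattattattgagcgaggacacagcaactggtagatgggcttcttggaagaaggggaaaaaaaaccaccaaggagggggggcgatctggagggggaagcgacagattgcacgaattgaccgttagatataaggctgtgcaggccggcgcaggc
Kcne2: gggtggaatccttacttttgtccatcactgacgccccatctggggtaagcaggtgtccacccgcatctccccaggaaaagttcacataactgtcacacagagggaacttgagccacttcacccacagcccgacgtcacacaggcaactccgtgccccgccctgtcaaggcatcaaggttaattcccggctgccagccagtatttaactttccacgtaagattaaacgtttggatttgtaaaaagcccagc
Otx2 has 4 windows, and the one shown was picked because it holds the match. A match describes the letters in this window and not binding.

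The list of genes of microglia, the resident macrophages of the brain, had a lower summed signal and a negative median on all 4 N-dCKO arrays. Of 31 listed, 29 were tested, 28 were negative and 9 fell (0.694% of all genes fell), and the median was -0.34. The summed signal of the 29 genes was 23367 to 24988 on the WT arrays and 18487 to 20018 on the N-dCKO arrays, with no overlap. On N-dCKO arrays 1 to 4 the list median against the WT mean was -0.33, -0.25, -0.35 and -0.38, so that array 3, which stood apart in choroid plexus genes, lay among the others. Without array 3, 8 microglia genes fell, and without any other 1 of the 8 arrays 6 or 7. In a fit with the level of choroid plexus genes as a covariate 26 of 29 were negative with a median of -0.35, and 0 passed. With the Gapdh ratio as a covariate the median was -0.34 and 1 gene passed. The summed signal was 20575 to 23836 in APPKO, reaching into the WT range, and 20104 to 21874 in APLP2KO, between both groups.

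The 3 chains of C1q, the recognition molecule of the classical complement pathway, which microglia secrete, fell together. C1qa read 1637, 1613, 1526 and 1514 in WT and 1158, 1238, 986 and 1209.8 in N-dCKO (-0.46 ± 0.07, limma adjusted p = 0.0025). C1qb read 1551, 1355, 1458 and 1392 and 1067, 1141, 969 and 1149 (-0.41 ± 0.07, limma adjusted p = 0.00368). C1qc read 1087, 944, 1052 and 909 and 702, 741, 730.1 and 792 (-0.42 ± 0.07, limma adjusted p = 0.00318). In each chain all N-dCKO arrays lay below all WT arrays, at 73.0%, 75.2% and 74.3% of the WT mean, and each passed in all 8 fits without 1 array, though 0 of them passed with either covariate. Of 18 complement genes 7 were tested and these 3 were the ones that fell (0.694% of all genes fell). The C1 inhibitor Serping1 was at 359.6 ± 34.9 in WT and 265 ± 27.9 in N-dCKO (SD, n = 4, limma adjusted p = 0.191).

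Mpeg1, the macrophage perforin, read 598, 581, 547 and 499.8 in WT and 302, 292, 222 and 225 in N-dCKO, the largest microglial fall (-1.08 ± 0.14, limma adjusted p = 0.000546). It was about as low in APLP2KO, at 253, while APPKO was at 482. Fcrls, an Fc receptor-like scavenger receptor typical of resident microglia, read 642, 687, 867 and 729 and 496, 329, 319.9 and 466 (-0.86 ± 0.15, limma adjusted p = 0.00539). Selplg, the selectin ligand PSGL-1, read 607, 630.1, 711 and 576 and 429, 412, 384 and 459.7 (-0.57 ± 0.09, limma adjusted p = 0.0025). The signalling adaptors Fcer1g and Tyrobp fell by 0.47 and 0.39 on the log2 scale, and the lysosomal protein Laptm5 by 0.39. These last 3 passed narrowly, with limma adjusted p of 0.0424, 0.028 and 0.0395, and each was lost in at least 6 of the 8 fits without 1 array.

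Members that did not pass included receptors often used to identify microglia. Csf1r, the receptor that keeps microglia alive, was at 5275 ± 129 in WT and 4599 ± 250.2 in N-dCKO (SD, n = 4), a difference of -0.20 ± 0.05 (limma adjusted p = 0.0853). Tmem119 (-0.34), P2ry12 (-0.28), P2ry13 (-0.46), Trem2 (-0.58), Cx3cr1 (-0.14), Siglech (-0.22) and the protease Ctss (-0.45) had adjusted p between 0.0628 and 0.582. Not every gene was low on every array: on N-dCKO array 2 Trem2 read 176, above all WT arrays, and Ly86 read 1009, inside the WT range of 943 to 1048. Adjusted p lay in that range too for Cd68, Ly86, Fcgr3, Aif1, Ptprc and Olfml3, with differences of -0.52 to -0.19. Cd53, Itgb5, Irf8, Gpr34 and Mertk lay between -0.16 and -0.02, and Sall1, a factor of microglial identity, was the 1 positive member (0.09). Genes that rise in activated microglia were mostly too dim to test, 4 of 16 being tested, with 0 calls and a median of 0.08, or -0.01 with median centring. Other falls in genes of immune cells, chosen after their values were seen, were the chemokine Ccl9 (-0.91, but not passing with signals below 88 set to 88), the tetraspanin Cd82 (-0.80), the leukotriene synthase Ltc4s (-0.73), Unc93b1, which carries Toll-like receptors to endosomes (-0.58), and the lysosomal protease Ctsc (-0.35). Of 14 tested genes of the interferon response and MHC class I, 1 fell, Ifi27 (0.694% of all genes fell). It went from 1092, 1408, 1264 and 1017 to 664, 639, 755 and 917 (-0.68 ± 0.11, limma adjusted p = 0.00229). The list median was -0.21. That median was -0.37 without N-dCKO array 3 and -0.38 with the Gapdh ratio as a covariate, array 3 alone being at -0.07 and the other N-dCKO arrays at -0.47 to -0.32. With the choroid plexus covariate 0 of the list passed.

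**Figure D4:**
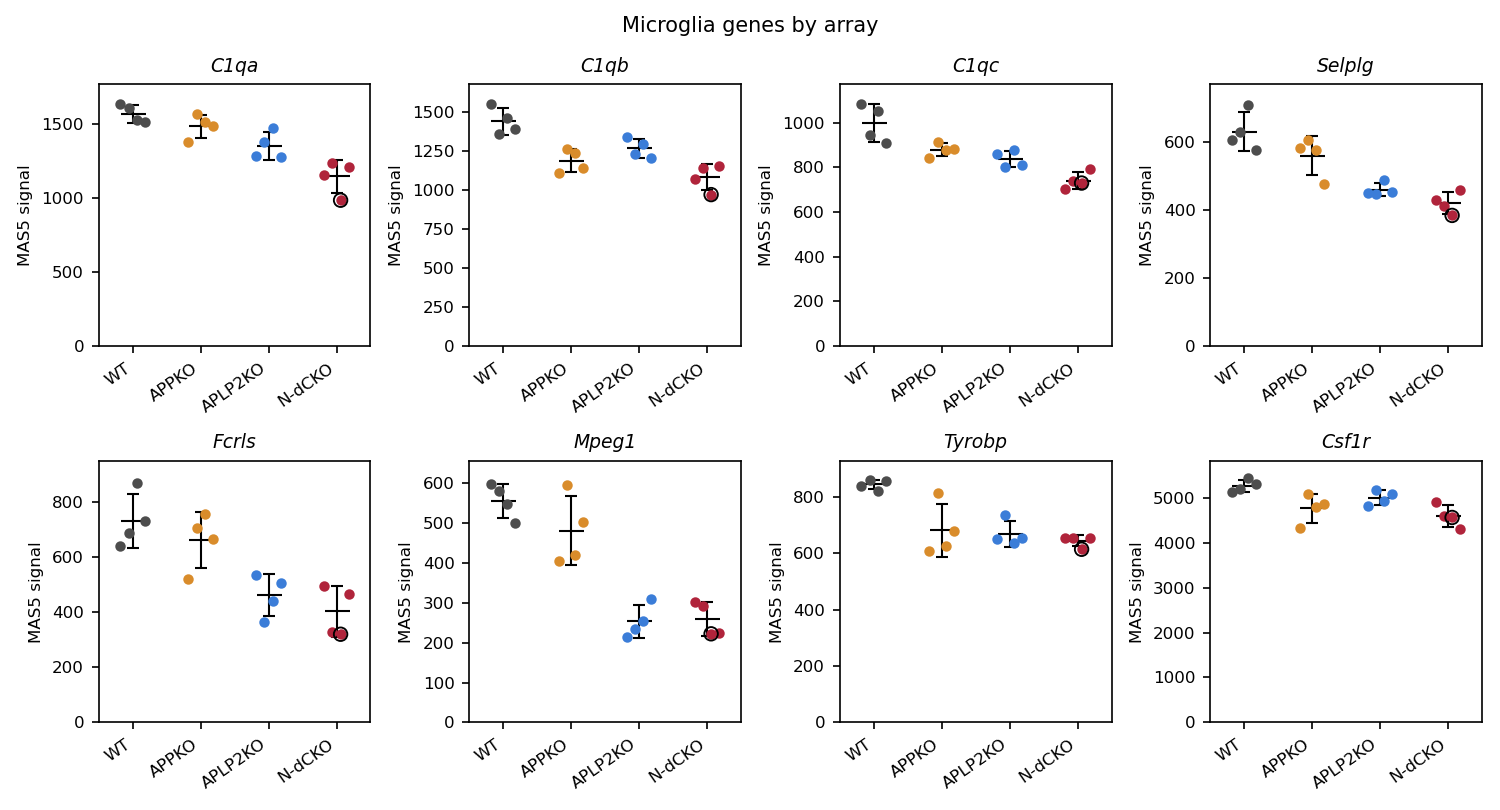
MAS5 signal (linear axis from 0) of 8 microglia genes on each array of the 4 groups; bars are the mean ± SD (n = 4) and a ring marks N-dCKO array 3. In all panels the N-dCKO mean is below the WT mean, and Csf1r is the 1 gene shown that did not pass.

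Promoters of the called microglia genes were searched for GAGGAAG, a core bound by PU.1, the factor that directs macrophage gene expression, or CTTCCTC on the other strand. A window was in the table for 6 of the 9 genes, and 3 of the 6 held the letters, against 15.4% of all genes with a window. Shown are the 250 bases before the start of C1qc (chr4:136892915-136893164, minus strand) and Fcrls (chr3:87263525-87263774, minus strand), each with its match in capitals, and of C1qb (chr4:136886201-136886450, minus strand), the neighbour of C1qc, which has none.
C1qc: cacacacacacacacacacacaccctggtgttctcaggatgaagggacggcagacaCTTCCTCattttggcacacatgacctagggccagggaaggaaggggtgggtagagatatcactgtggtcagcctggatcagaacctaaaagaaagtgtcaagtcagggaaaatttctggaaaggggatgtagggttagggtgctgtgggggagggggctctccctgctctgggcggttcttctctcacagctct
Fcrls: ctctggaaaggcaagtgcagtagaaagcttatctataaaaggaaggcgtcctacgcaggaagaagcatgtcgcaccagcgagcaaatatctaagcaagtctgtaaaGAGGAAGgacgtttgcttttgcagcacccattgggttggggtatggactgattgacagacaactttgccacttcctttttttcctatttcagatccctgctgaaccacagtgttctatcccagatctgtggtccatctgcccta
C1qb: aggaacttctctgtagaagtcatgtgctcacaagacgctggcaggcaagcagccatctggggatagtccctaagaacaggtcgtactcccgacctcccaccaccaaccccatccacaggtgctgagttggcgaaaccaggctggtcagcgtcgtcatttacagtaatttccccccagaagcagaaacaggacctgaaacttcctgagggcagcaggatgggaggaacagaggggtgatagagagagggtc
The matches lie 194 bases before the start of C1qc and 144 before that of Fcrls, and with 6 genes the share is a description only.

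Genes of oligodendrocytes and myelin, the sheath that insulates axons, leaned lower. All 18 tested were negative, with a median of -0.51, and 2 fell (0.694% of all genes fell). Mal, a lipid raft protein of compact myelin, read 10252, 13927, 11101 and 9285 in WT and 4309, 6066, 6531 and 7138 in N-dCKO, without overlap (-0.90 ± 0.20, limma adjusted p = 0.0309). Plekhb1 went from 4687, 5987, 5038 and 4127 to 2921, 3483, 3511 and 3682 (-0.54 ± 0.12, limma adjusted p = 0.0411). The summed signal of the list was 114139 to 141886 in WT and 83600 to 103378 in N-dCKO, and it was 85050 to 128897 in APPKO, whose arrays thus spanned both ranges. Mag, a myelin adhesion protein, was at 4207 ± 291 in WT and 2972 ± 305 in N-dCKO (SD, n = 4, limma adjusted p = 0.0576), and Tspan2 was at a difference of -0.50 (limma adjusted p = 0.0591). The count rests on single arrays and on scaling. It was 0 without any 1 of WT arrays 1, 2 and 3 or N-dCKO arrays 1 and 2, 1 without N-dCKO array 3, 3 without WT array 4, 4 without N-dCKO array 4, 8 with median centring and 0 with either covariate.

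Of 13 tested oligodendrocyte precursor genes 0 passed, with a median of -0.13, and 1 passed without N-dCKO array 4. Gpr37, a receptor of differentiating oligodendrocytes, and Dbndd2, both chosen after their values were seen, fell by 0.42 and 0.35. In cholesterol and fatty acid synthesis, whose products myelin needs in quantity, the median was -0.11. Of 25 tested genes 23 were negative and 2 were called lower (0.694% of all genes fell). These were Fdps, the farnesyl diphosphate synthase (-0.38 ± 0.08, limma adjusted p = 0.0331), and Sc5d, which acts late in cholesterol synthesis (-0.39 ± 0.09, limma adjusted p = 0.0344). Without any 1 of WT arrays 1, 2 and 4 or N-dCKO arrays 1 and 2 this count was 0, and without any other 1 of the 8 arrays it was 1. With either covariate it was 0. Sc5d lies on chromosome 9, 11.1 Mb from Aplp2. Fdft1 and Srebf2 had differences of -0.21 and -0.22 and did not pass.

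Few neuronal genes passed. Reln, the extracellular glycoprotein made by Cajal-Retzius cells and interneurons, was the 1 of 19 tested genes of GABAergic interneurons to rise (0.249% of all genes rose). It read 3346, 2731, 3444 and 3706 in WT and 4599.7, 4390.1, 4578 and 4222 in N-dCKO, without overlap (0.43 ± 0.09, limma adjusted p = 0.0206), with means of 3619 in APPKO and 3715 in APLP2KO. It did not pass with median centring or with either covariate, nor without N-dCKO array 1, N-dCKO array 2 or WT array 2. Gad1 had a log2 fold change of 0.13 and Npy of 0.15, and neither passed. Htr3a went the other way, at -0.62 ± 0.19 without overlap, and did not pass (limma adjusted p = 0.129). Its mean was 277 in WT, 177 in N-dCKO and 132 in APLP2KO, and it lies on chromosome 9 with Aplp2. Of the 19 genes 17 were positive with a median of 0.10, whereas with median centring 10 were positive with a median of 0.01.

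Of 22 tested neuropeptides and granins 2 rose (0.249% of all genes rose). Vgf, a secreted peptide precursor of active neurons, read 3467, 3112, 3159 and 3739 and 4559.5, 3843, 4107 and 4116 (0.30 ± 0.07, limma adjusted p = 0.0336). Crh, the corticotropin-releasing hormone of interneurons, read 558, 386, 358 and 322 and 799, 513, 576 and 712, with overlap because WT array 1 lay above N-dCKO array 2 (0.68 ± 0.16, limma adjusted p = 0.0424). Each was lost in 6 of the 8 fits without 1 array. With median centring, or with either covariate, 0 of the list passed.

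Glutamate receptors and postsynaptic density genes were nearly all slightly positive, 26 of 28 with a median of 0.10, and 0 passed, whereas with median centring 17 of 28 were positive with a median of 0.01. The kainate receptor Grik3 had a log2 fold change of 0.40 ± 0.13, the NMDA receptor subunit Grin2b of 0.33 ± 0.11 and the scaffold Shank3 of 0.31 ± 0.10 (limma adjusted p = 0.16, 0.166 and 0.139). Without N-dCKO array 2, 1 gene of the list passed. No gene passed among 26 tested genes of the presynaptic vesicle cycle (median 0.04, or -0.05 with median centring), 9 GABA receptor genes (0.11 and 0.02), 18 pyramidal neuron genes (0.03 and -0.06) and 12 dentate granule neuron genes (-0.13 and -0.22). Without N-dCKO array 4, 1 presynaptic gene passed. The synaptic vesicle protein Sv2a came closest (0.23 ± 0.06, limma adjusted p = 0.0764). Among 21 tested immediate early genes, which neuronal activity induces, 17 were positive, the median was 0.16 and 0 passed, with Egr2 at 0.83 ± 0.30 (limma adjusted p = 0.249). With median centring 13 were positive and the median was 0.068, without 1 array it was 0.093 to 0.24, and N-dCKO array 1 alone was at -0.15.

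The other 26 rises were on no list, and most were modest, the median of all 29 being 1.33-fold. Grouped here after their values were seen, and with no test of the grouping, are some that encode proteins of axon guidance, adhesion or the cytoskeleton. Neo1, neogenin, a receptor for netrins and repulsive guidance molecules, read 2480.1, 2235, 2254 and 2378 in WT and 3468, 2921, 2692 and 3116 in N-dCKO (0.38 ± 0.07, limma adjusted p = 0.00539). Tenm3, a teneurin that matches synaptic partners, read 2290.4, 2341, 2351 and 2979 and 4159, 3204, 3187 and 3119.9 (0.45 ± 0.10, limma adjusted p = 0.0339), so that N-dCKO array 1 and WT array 4 lay above their own groups. The semaphorin Sema4g (0.43, not passing with signals below 88 set to 88), LIM kinase Limk1, which regulates actin (0.39), the secreted Lgi2 (0.33), the collagen Col19a1 (0.46) and Filip1, a filamin-interacting protein (0.78), also rose. Neo1 and Filip1 lie on chromosome 9, which also carries Aplp2.

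Slc8a1, the sodium-calcium exchanger NCX1, read 834, 825, 799 and 848 in WT and 1162, 1084, 1099.8 and 956 in N-dCKO (0.37 ± 0.07, limma adjusted p = 0.00986), without overlap. Fxyd2, which modulates the sodium pump, rose 2.05-fold, from 161, 141, 191 and 218 to 348, 427, 440.4 and 283 (1.03 ± 0.17, limma adjusted p = 0.00313). The transcript 2900052N01Rik read 1222, 1106, 973 and 948 and 1881, 2626, 2668 and 2077, the largest rise (1.11 ± 0.16, limma adjusted p = 0.00185). These were the 2 rises that passed with median centring, and both had levels in APLP2KO near those in N-dCKO, with means of 400.4 and 2189. Trub2, a pseudouridine synthase, read 325, 303, 319 and 323 and 455, 533, 423 and 476 (0.55 ± 0.10, limma adjusted p = 0.0105), with a mean of 509.9 in APLP2KO and of 325 in APPKO. Galc, the lysosomal enzyme that degrades a myelin lipid, rose by 0.41 ± 0.10 (limma adjusted p = 0.0411).

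Smaller groups of rises completed the 29. Zbtb16 (0.47) and, outside the rule for naming genes and chosen after their values were seen, Hdac9 (0.39) and Hopx (0.32) encode regulators of transcription. Gucy1a2 (0.36) is a subunit of the guanylate cyclase that senses nitric oxide, and Ift46 (0.38) and Cntrob (0.61) encode proteins of cilia and centrioles. Zcchc2, Ppp1r26 and Lrrc49 rose by 0.42, 0.41 and 0.49. Card10, 4932438A13Rik, Strbp, Man2c1 and Elovl5, named after their values were seen, rose by between 0.21 and 0.82. Of the 29 rises, 4 passed in all 8 fits without 1 array (2900052N01Rik, Fxyd2, Trub2 and Neo1), and with the Gapdh ratio as a covariate 1 of them passed. 2900052N01Rik, Fxyd2 and Neo1 lie on chromosome 9 with Aplp2. With each gene taken as the mean of its probe sets, rather than the brightest 1, 22 of the 29 rises passed. Slc8a1, Tenm3, Zbtb16, Limk1, Man2c1, Elovl5 and Strbp did not pass in that fit, though all 29 stayed positive.

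**Figure D5:**
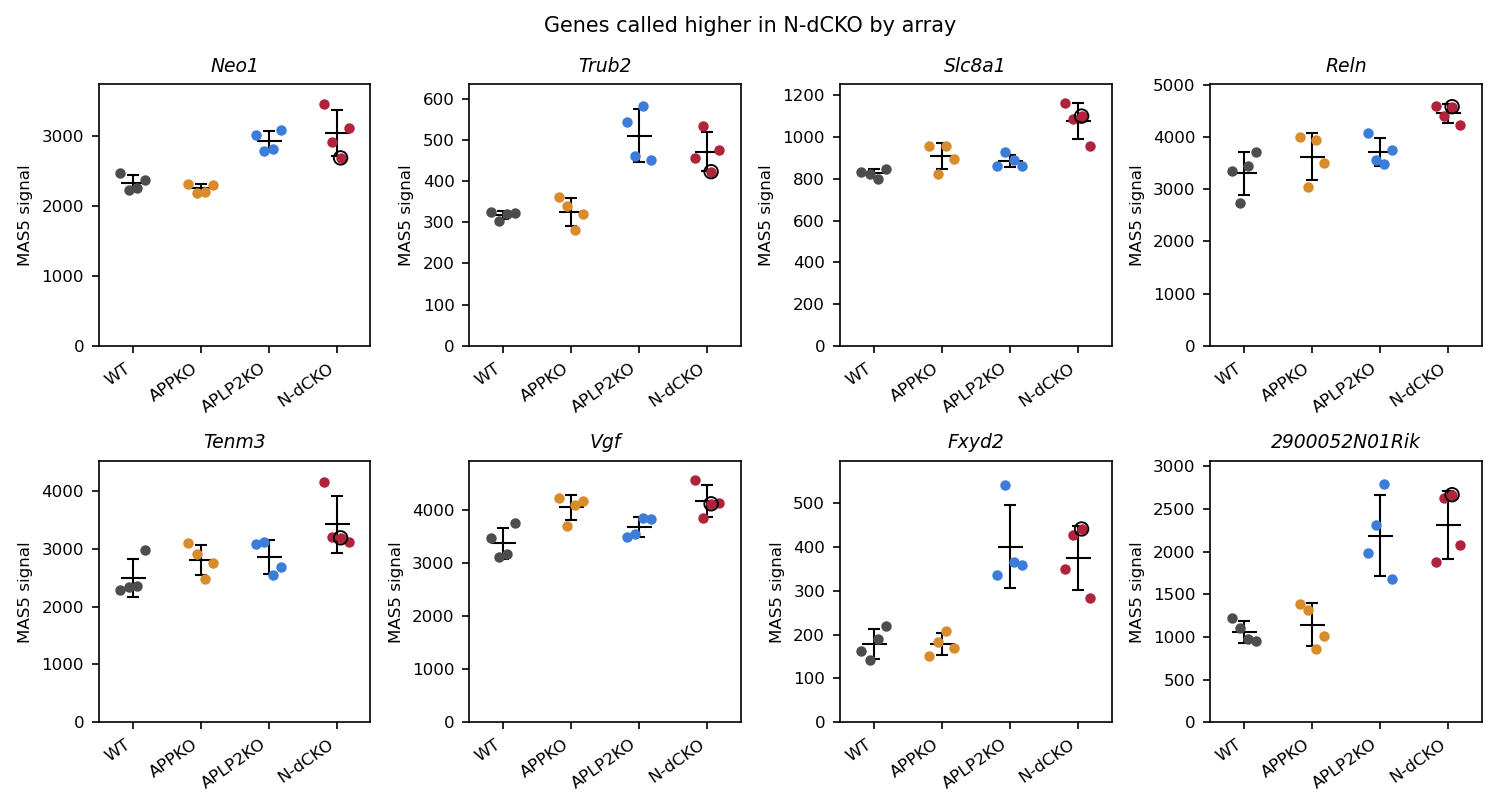
MAS5 signal (linear axis from 0) of 8 genes called higher in N-dCKO, on each array of the 4 groups; bars are the mean ± SD (n = 4) and a ring marks N-dCKO array 3. All N-dCKO arrays lie above all WT arrays in each panel.

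Among 32 tested genes of the APP family, its secretases and its adaptors, App and Aplp2 fell and 0 others passed. The beta-secretase Bace1 was at 3174 ± 135 in WT and 3617 ± 268 in N-dCKO (SD, n = 4), a difference of 0.19 ± 0.06 (limma adjusted p = 0.165). For the sorting receptor Sorl1 it was 0.16 ± 0.06 (limma adjusted p = 0.252). The median of the list was -0.03, and -0.11 with median centring.

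Other cell types and pathways had few or no calls. None of 20 tested astrocyte genes passed, with a median of 0.05, or -0.04 with median centring. Serpina3n, a protease inhibitor that reactive astrocytes secrete, nevertheless read 352, 328, 416 and 321 in WT and 1188, 331, 1191 and 1475 in N-dCKO. Arrays 1, 3 and 4 lay above every WT array and array 2 inside the WT range, so that the change was 1.35 ± 0.40 with a limma adjusted p of 0.118, and 1.83 with an adjusted p of 0.0123 without N-dCKO array 2. The astrocyte genes Aldh1l1, Slc1a3 and Aqp4 had differences of 0.22, 0.21 and 0.27, and without N-dCKO array 3 Slc1a3 passed (0.30, limma adjusted p = 0.00467). Of 20 tested endothelial and mural genes 0 passed (median -0.08), with Vtn of pericytes at -0.30 ± 0.07 (limma adjusted p = 0.0591). No gene passed among 21 tested ER chaperone genes (19 negative, median -0.17, or -0.26 with median centring), 25 of oxidative phosphorylation (-0.02) and 18 of neurogenesis and proliferation (0.07, or -0.01 with median centring). Without N-dCKO array 4, however, 3 ER chaperone genes were called lower, as were 87 of all 11664 genes in that fit. Maob, the monoamine oxidase of astrocytes, is on none of these lists and was singled out after its values were seen. It fell from 1105, 1144, 1527 and 1216 to 764, 804, 839 and 921 (-0.57 ± 0.11, limma adjusted p = 0.0131).

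Called genes were unevenly spread over the chromosomes. On chromosome 9, which carries Aplp2, 21 of 672 other tested genes were called (3.12%), 10 higher and 11 lower, while 88 of 10991 genes on the other chromosomes were called (0.801%). None of 89 tested genes within 10 Mb of Aplp2 passed, 6 within 20 Mb did, and the called genes lie between 11.1 and 79.5 Mb from it by the GRCm38.p6 gene table. Of the 21, 8 passed in all 8 fits without 1 array. The 10 rises, of 29 in all, are 2900052N01Rik, Fxyd2, Filip1, Neo1, Lrrc49, Zbtb16, Ift46, Gucy1a2, Man2c1 and Elovl5. Pdgfd, a platelet-derived growth factor, read 361, 361, 285 and 318 in WT and 62.4, 60.5, 174 and 102 in N-dCKO (-1.76 ± 0.23, limma adjusted p = 0.000722), with means of 115 in APLP2KO and 296 in APPKO. Spink8, a protease inhibitor of pyramidal neurons named after its values were seen, read 879, 824, 867 and 859.8 and 488, 484, 287 and 361 (-1.10 ± 0.19, limma adjusted p = 0.00368). Its mean was 536 in APLP2KO and 842 in APPKO. Ddx6, an RNA helicase, and Coro2b, a coronin, fell by 0.54 and 0.62, with means of 2549 and 2542 in APLP2KO against 3877 and 4023 in WT. Calml4, Car12 and Pcolce2, given above with the choroid plexus and fluid transport falls, are also among the 21. Their differences from WT were -1.85, -0.70 and -0.72 in N-dCKO and -0.16, -0.28 and -0.40 in APLP2KO. Sc5d, given above with cholesterol synthesis, is among the 21 too and is the called gene nearest to Aplp2. Of the 61 tested genes within 10 Mb of App on chromosome 16, 2 were called, the choroid plexus genes Clic6 and Kcne2.

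On chromosome 3, Exosc9, a subunit of the RNA exosome, and Cetn4, a centrin, lie 0.756 Mb apart and both fell. Exosc9 read 1345, 1230.5, 1234 and 1261 in WT and 518, 463, 815 and 577 in N-dCKO (-1.12 ± 0.18, limma adjusted p = 0.00294). Cetn4 read 618, 764, 642 and 529 and 163, 194, 429.8 and 183 (-1.46 ± 0.22, limma adjusted p = 0.00196). APLP2KO had means of 711 and 324 and APPKO of 1219 and 559.6. The uncharacterised 4932438A13Rik, 0.310 Mb from Exosc9, rose (0.35 ± 0.08, limma adjusted p = 0.0498). These 3 were singled out after their values were seen, from 19 tested genes within 2 Mb of Exosc9. Ang, a secreted ribonuclease on chromosome 14, went from 369, 498, 403 and 458 to 103, 263, 45.3 and 159 (-1.76 ± 0.36, limma adjusted p = 0.022) and had a mean of 213 in APLP2KO.

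Whether the double knockout differed from the sum of both single knockouts was asked with the interaction term, N-dCKO minus APPKO minus APLP2KO plus WT. No gene passed (0% called), the smallest limma adjusted p being 0.557, and 484 genes had an unadjusted p below 0.05. The comparisons of the 3 knockout groups share the WT arrays, so their values are only given side by side. For Clic6 the log2 fold change against WT was -0.38 in APPKO, -0.77 in APLP2KO and -3.71 in N-dCKO, and its interaction was -2.56 ± 0.78. For C1qa the same values were -0.08, -0.21 and -0.46, with an interaction of -0.16 ± 0.10, and for Mpeg1 -0.22, -1.12 and -1.08, with an interaction of 0.26 ± 0.19. The microglia list had a median interaction of 0.04, the myelin list of -0.01 and both choroid plexus lists of -0.65 and -0.82. The 5 genes with the smallest interaction p were Galc (-0.70 ± 0.13), Cln8 (-0.60 ± 0.15), Cyb5d2 (-0.76 ± 0.18), Slc32a1 (0.42 ± 0.11) and Gfpt1 (0.32 ± 0.08).

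The count of 0 changed when N-dCKO array 3 was left out. Without it, 11 genes had an interaction that passed, and 8 of them were choroid plexus list genes: Ttr (-6.88 ± 0.46), Clic6 (-3.42 ± 0.41), Otx2 (-3.30 ± 0.50), Kcne2 (-3.29 ± 0.53), Folr1 (-2.62 ± 0.37), Kcnj13 (-2.35 ± 0.43), Aqp1 (-2.19 ± 0.40) and Cldn2 (-1.90 ± 0.32). Ecrg4, Defb11 and Galc were the others, at -2.93, -2.53 and -0.75. Galc was higher in N-dCKO than in WT, so its negative value means that it rose less than the sum of both single knockout changes. The choroid plexus values are sizes of the signals as read, many of them dim in N-dCKO and, for Ttr, near the top of the scale elsewhere. In that fit N-dCKO is 3 arrays, and no microglia or myelin list gene was among the 11. Array 3 was set apart for its high signals in choroid plexus genes. Leaving it out lowers their N-dCKO level by the choice of array, so these 8 calls are no separate support for an interaction.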

How the data were processed

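Total RNA extracted from hippocampus with Trizol was labelled from 6 ug per sample and hybridised to Affymetrix mouse arrays, per the labels' protocols. The deposited table holds linear intensity values, and the submitters' processing notes name MAS5, without a version, as the authors' software. Trimmed by 2% at each end, all arrays averaged 500, so they were not normalized again.

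Of 45101 probe sets, 34945 had 1 gene symbol, 932 several and 9224 none. Probe sets with 1 symbol and a mean log2 signal at or above the median (6.60, a signal of 88) were kept, and the brightest one stood for its gene, giving 11664 genes. This filter uses the mean over all 16 arrays. Gene numbers were matched to the GRCm38.p6 gene table for symbols.

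Log2(signal + 9) was modelled in R 4.3.3 by limma 3.58.1, with 1 mean per group over 16 arrays and a variance trend (19.4 moderated degrees of freedom). P-values are two-sided and were adjusted by Benjamini-Hochberg over all genes tested. This scale understates changes of dim genes. Fold changes had a median SE of 0.0979, and precision is limited by having few arrays. The value after ± is an SE beside a fold change and an SD beside a signal or ratio. App, Aplp2 and Aplp1 probe sets and control ratios were tested with exact permutation over 4 against 4 arrays. The fit was checked on simulated data.

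Same-numbered WT and N-dCKO arrays did not deviate together (correlations of 0.0365, -0.0218, 0.0306 and 0.00527), so the numbers were not used as pairs. Alternatives covered normalization, pseudocount, filter, probe sets, variance model, samples fitted, 2 covariates and each array left out. A floor at the filter's cutoff was added after the data were seen. Named are the targeted family, at most 20 called rises and 20 falls with the largest change and separated arrays, called list members, up to 4 members of each list with the smallest p, tested choroid plexus and microglia genes, called genes within 10 Mb of App or Aplp2, and the 5 genes with the smallest interaction p. The comparison, the 25 lists and these rules were chosen with earlier results of these data known, so lists are described by counts and medians and not tested. Promoter sequences are from RefSeq.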

Additional observations from a re-analysis of the deposited data

Results flagged for a closer look

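In 342 groups of 4 arrays, those of the 171 named genes in WT and in N-dCKO, 24 held an array whose distance to its nearest neighbour exceeded, as a share of the group's range, Dixon's 95% critical value for 4 samples, where chance gives about 1 group in 20. N-dCKO array 3 was that array in 9 of them. It was high for the choroid plexus genes Cldn2 (signal 153), Folr1 (385), Kcne2 (155), Krt18 (96.2), Sostdc1 (728) and Steap1 (151) and for the calcium pump Atp2b3 (5306), and low for the matrix protein Dcn (1766) and the microglial adaptor Tyrobp (614). Other single N-dCKO arrays stood apart for Col19a1 (636 on array 4, low), Pdia3 (4968 on array 4, high), Gabra2 (3738 on array 1, high), Tenm3 (4159 on array 1, high) and Serpina3n (331 on array 2, low). Among the WT arrays, array 1 was apart for Htr3a (353, high), Pdia4 (714, low) and Zbtb16 (1086, high), array 2 for Aqp4 (5042, high) and Gfpt1 (2399, high), array 3 for Gabra5 (4534, low) and Gria4 (1324, high), and array 4 for Atp2b3 (6092, high), Cx3cr1 (614, low) and Tenm3 (2979, high). Col19a1, Tenm3 and Zbtb16 rose and Tyrobp fell in N-dCKO, and their groups did not overlap with these arrays included.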

How the results depend on the processing

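All 110 called genes kept their direction in every fit that tested them except that with the choroid plexus level as a covariate, where 101 of 110 did. There 4 genes were called, 1 higher and 3 lower, and 9 genes reversed without passing: Calml4 0.23, Col8a1 0.38, Col8a2 0.49, F5 0.10, Kcne2 0.041, Otx2 0.050, Pcolce2 0.039, Slc2a12 0.17 and Ttr 0.058. This covariate was made from the choroid plexus genes themselves. With signals below 88 set to 88, added after the data were seen, 108 genes were called (29 higher, 79 lower), 106 of them among the 110. With the Gapdh ratio as a covariate 23 genes were called (1 higher, 22 lower).

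The counts were 60 (17 higher, 43 lower) with a 75th percentile filter, 170 (45, 125) with array weights, 73 (17 higher) without a variance trend, 33 (10, 23) with an ordinary test and 14 higher without a filter. With only the groups compared 16 were higher, and with median centring 2 were higher and 148 lower. The replicate number as a block gave 198 genes (51 higher, 147 lower), and with only the groups compared 16 higher in the replicate block. Leaving out 1 array of either group gave 45 to 115 genes, 5 to 28 of them higher and 39 to 87 lower, and 0 to 11 genes in the interaction, the 11 without N-dCKO array 3. The cause was not tested.

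Near App 0 genes were called in a 5 Mb window, and near Aplp2 6 in a 20 Mb window. The 2 App probe sets near background had differences of -0.10 (exact permutation p = 0.743) and 0.0077 (exact permutation p = 0.971).

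Median centring lowered the list medians to -0.51 for complement, -0.43 for microglia, -0.22 for oligodendrocyte precursors and for dentate granule neurons, -0.20 for cholesterol and fatty acid synthesis, -0.17 for endothelial and mural cells, -0.11 for the APP family, -0.10 for oxidative phosphorylation, -0.056 for pyramidal neurons, -0.049 for the presynaptic list, -0.039 for astrocytes, -0.021 for neuropeptides, -0.013 for neurogenesis, -0.0055 for microglia activation, 0.011 for interneurons and 0.010 for glutamate receptors. Without 1 N-dCKO array the astrocyte median was 0.044 to 0.088 and that of microglia activation -0.023 to 0.11.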
